A study of Mus musculus with 16 samples.

Results

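The insulin-like growth factor (IGF) system was followed in the pituitary through 10 genes. They were 2 ligands (*Igf1* and *Igf2*), 2 receptors (*Igf1r* and *Igf2r*) and 6 binding proteins (*Igfbp2*, *Igfbp3*, *Igfbp4*, *Igfbp5*, *Igfbp6* and *Igfbp7*). They were taken by name from the 17362 genes listed in the expression table, and all 10 were present. With the filter on low genes (an average of 1 or more) 14345 genes were tested, all 10 among them. Over both diets together, *Igfbp3*, *Igfbp5*, *Igfbp4*, *Igfbp7* and *Igfbp2* were higher in mutant females by the test across all genes, *Igfbp3* the most. Only *Igfbp3* and *Igfbp5* passed it on the standard diet alone, and none of the 10 on the high-fat diet alone. The results of *Igfbp4*, *Igfbp7* and *Igfbp2* were lost in 10, 11 and 14 of 16 fits that each dropped 1 mouse. Both ligands, both receptors and *Igfbp6* did not pass the test in any comparison of the 16 mice.

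Bulk RNA-seq was made from the pituitary of 16 female mice at 27 weeks of age, with 1 library per mouse and 4 mice in each of 4 groups. Every mouse was homozygous for the floxed *Esr1* allele, which encodes oestrogen receptor alpha, on a mixed CD-1 and 129P2 background. Control mice were *Esr1* fl/fl females. Esr1Nkx2-1Cre mutant females carry a Cre driven by *Nkx2-1*, which deletes *Esr1* wherever that gene was ever active, the medial basal hypothalamus included. The driver is not specific to the pituitary, and which pituitary cells lost *Esr1* was not tested. Each genotype was fed either a standard diet (SD, labelled CHOW) or a high-fat diet (HFD) for 17 weeks. The 4 groups are called control SD, mutant SD, control HFD and mutant HFD, and single mice are named by the animal numbers of the labels. Low numbers (P339 to P359) and high numbers (P381 to P392) are spread unevenly over the groups. On SD, the controls P356, P358 and P359 and the mutant P357 have low numbers. The control P383 and the mutants P381, P382 and P384 have high ones. All control HFD mice have high numbers, and mutant HFD mice have both. On SD the numbers are thus partly aligned with genotype.

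IGF1 and IGF2 are small secreted proteins related to insulin, and both act mainly through the IGF1 receptor, a tyrosine kinase on the cell surface. IGF2 is also taken up and degraded by the IGF2 receptor, a mannose-phosphate receptor without a kinase. In tissues and blood the ligands are held by IGF-binding proteins, which set how much ligand reaches the receptor and are themselves cut by proteases. In the pituitary, circulating IGF1 restrains the release of growth hormone, which is the main stimulus of IGF1 production in the liver.

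Levels are given in the units of the deposited table, a normalized signal. Its columns had sums from 908897 to 1335782 (median 966116), and read depth is unknown. *Prl*, the prolactin gene, took between 28.8% and 40.6% of the sum in each mouse, and *Gh*, the growth hormone gene, was between 30462 and 95122, so the defining transcripts of the gland were high in every library. As a check of the genotype, *Esr1* was 40.5, 46.6, 39.4 and 29.0 in control SD mice and 10.02, 22.2, 20.5 and 21.8 in mutant SD mice, with no overlap. It was 23.6, 43.4, 42.7 and 39.6 in control HFD mice and 33.4, 27.9, 33.0 and 21.5 in mutant HFD mice, which overlapped. The limma adjusted p of *Esr1* was 0.0409 on SD and 0.696 on HFD, so the check separated the genotypes on SD only. The *Esr1* value sums all transcripts of the gene, so reads outside the floxed part still count. Of the libraries, 2 stood apart. In P357, a mutant SD mouse, 8.94% of the signal came from mitochondrial genes against 3.54% to 4.59% in the others. The melanotroph markers of the intermediate lobe summed to 29.9 in P357 and 73.4 in P392, against 143 to 247 in control SD mice. They summed to 171 to 197 in the other mutant SD mice and to 200 to 330 in the other control HFD mice. Markers of the posterior lobe summed to 15.4 in P357 and 18.2 in P392, against 39.0 to 66.5 in the others. Most of these 2 low sums was *Col25a1*, at 13.9 in P357 and 15.3 in P392. P392, a control HFD mouse with *Esr1* at 39.6, carried high values of several IGF genes and of vascular markers, and values without it are given beside the main results that it moves. Since P392 was picked for these values, an adjusted p without it describes the other mice and is not a separate test.

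Read per unit of transcript length, *Igfbp5* was the highest of the genes in control SD mice, at a mean level of 176 ± 15.1 (SD, n = 4), above 97.4% of the tested genes. *Igfbp7* followed at 48.0 ± 6.27, and the values of *Igfbp5* overlapped with those of no other gene. *Igfbp7* (39.4 to 54.4) overlapped with the highest mouse of *Igfbp3* (P356, 48.3). *Igfbp4* (28.5 ± 2.97), *Igf1r* (27.3 ± 4.98) and *Igfbp3* (27.2 ± 14.2) came next and also overlapped with each other. *Igfbp2* (11.3 ± 0.857) and *Igf2r* (10.6 ± 1.42) overlapped as well. *Igf2* (3.18 ± 1.59), *Igf1* (2.51 ± 0.310) and *Igfbp6* (2.17 ± 0.941) were the lowest and could not be ordered. The ligand genes thus lay below 5 of the 6 binding protein genes, *Igfbp6* being the exception. The highest mouse was 10.04 times the lowest for *Igfbp6* and 6.04 times for *Igfbp3* over all 16 mice, but only 1.60 times for *Igf1r*.

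**Figure D1:**
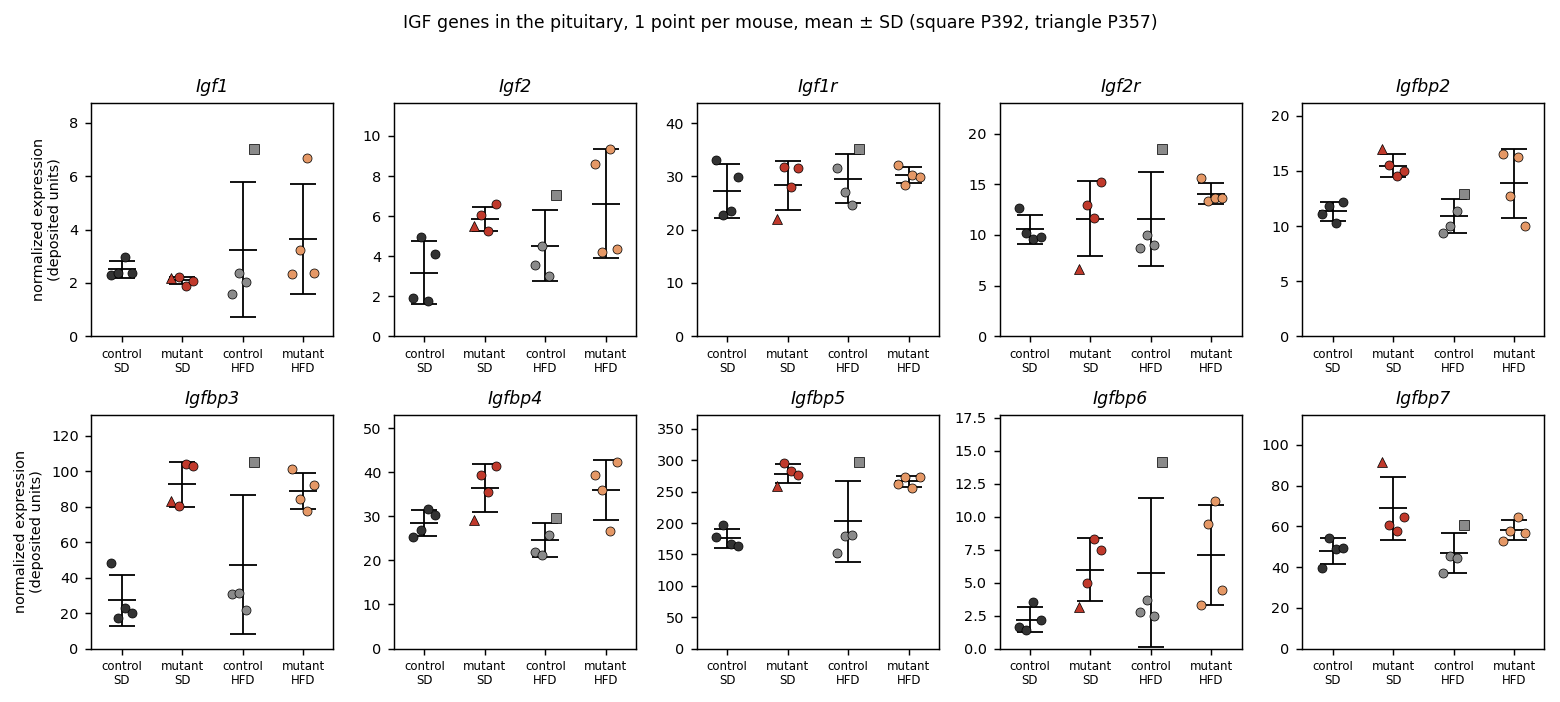
Normalized expression of the 10 genes in deposited units (y axes, each from 0) in the 4 groups of 4 mice (x axes), with 1 point per mouse and black bars for the mean ± SD. Mutant and control SD mice do not overlap for *Igf2*, *Igfbp2*, *Igfbp3*, *Igfbp5* and *Igfbp7* (mutants higher) and for *Igf1* (mutants lower). Of all tested genes, 6.09% were higher and 4.5% lower without overlap. P392 (square) lies with the mutants for *Igfbp3* and *Igfbp5*, at 105 and 298.

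Of the ligands, *Igf2* (chr7:142650766-142666816, minus strand), an imprinted growth factor of fetal tissues that some adult tissues still express, was the one with a higher mean in mutants on SD. Positions are those of GENCODE on GRCm38 (mm10). Its level was 1.93, 4.93, 1.75 and 4.11 in control SD mice and 5.49, 6.07, 5.24 and 6.63 in mutant SD mice. All 4 mutants lay above all 4 controls. The HFD values were 3.54, 4.51, 3.01 and 7.05 in controls and 8.61, 4.20, 9.33 and 4.35 in mutants, and the groups overlapped. The log2 fold change was 0.89 (SE 0.33, adjusted p = 0.150) on SD, 0.48 (SE 0.33, adjusted p = 0.658) on HFD and 0.69 (SE 0.23, adjusted p = 0.0869) over both diets, so it did not pass the test across all genes. Without P392 the value over both diets was 0.79 and passed it (adjusted p = 0.0290, range over all alternatives 0.0290 to 0.1797). *Igf2os*, *Gm49394* and *Mir483* overlap this gene, and since the use of strand in counting is not given in the sources used here, reads of overlapping genes may not be told apart.

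*Igf1* (chr10:87858265-87937042, plus strand), the ligand that is best known as the circulating mediator of growth hormone, was 2.30, 2.39, 2.97 and 2.38 in control SD mice and 2.20, 2.21, 1.90 and 2.07 in mutant SD mice. The mutants were below the controls without overlap, by a small step (log2 fold change -0.21, SE 0.35, adjusted p = 0.769, two-sided exact permutation p = 0.0286, which is the smallest that 4 against 4 mice can give). Under HFD the level was 1.57, 2.38, 2.04 and 7.01 in controls and 2.35, 3.23, 6.68 and 2.36 in mutants. A single mouse in each of these groups, P392 and P387, was far above the rest. Over both diets the log2 fold change was 0.012 (SE 0.25, adjusted p = 0.984). Its antisense transcript *Igf1os* overlaps the gene.

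The receptor genes did not separate the groups. *Igf1r* (chr7:67952827-68233668, plus strand), the signalling receptor, was 33.0, 22.8, 23.5 and 29.9 in control SD mice, 21.9, 31.7, 28.1 and 31.6 in mutant SD mice, 31.5, 27.1, 24.6 and 35.1 in control HFD mice and 32.2, 28.5, 30.3 and 30.0 in mutant HFD mice. Each group overlapped with the others, and the genotype difference over both diets was 0.050 on the log2 scale (SE 0.10, adjusted p = 0.823). *Igf2r* (chr17:12682406-12769664, minus strand), which clears IGF2, was 12.7, 10.2, 9.65 and 9.75 in control SD mice, 6.595, 13.0, 11.7 and 15.3 in mutant SD mice, 8.75, 9.99, 9.003 and 18.4 in control HFD mice and 15.7, 13.4, 13.7 and 13.7 in mutant HFD mice. The 6.595 is P357 and the 18.4 is P392. Over both diets the log2 fold change was 0.21 (SE 0.17, adjusted p = 0.496) in all mice and 0.45 (SE 0.09, adjusted p = 0.00281) without these 2 mice, and the adjusted p ranged from 0.00281 to 0.671 over all alternatives. The 2 mice hold the lowest and the highest *Igf2r* value, so the adjusted p without them is not a separate test. The non-coding *Airn* transcript overlaps *Igf2r* on the other strand.

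On SD, 2 of the 10 genes were called higher in mutants at an adjusted p under 0.05 and 0 were called lower, where 1.37% of all tested genes were called higher, 0.474% lower and 1.84% in either direction. These were *Igfbp3* and *Igfbp5*. *Igfbp3* (chr11:7206086-7213923, minus strand), the main carrier of IGF in blood, was 48.3, 17.5, 22.6 and 20.3 in control SD mice and 83.1, 80.3, 104 and 103 in mutant SD mice. The lowest mutant was above the highest control. The mean was 3.41 times higher, from 27.2 ± 14.2 to 92.5 ± 12.6 (SD, n = 4 each), and the log2 fold change was 1.86 (SE 0.38, adjusted p = 0.0264). *Igfbp5* (chr1:72857932-72874884, minus strand), a binding protein that attaches to the extracellular matrix, was 178, 196, 167 and 163 in control SD mice and 259, 296, 283 and 276 in mutant SD mice. Again no values overlapped. The mean was 1.58 times higher, from 176 ± 15.1 to 278 ± 15.1, and the log2 fold change was 0.66 (SE 0.15, adjusted p = 0.0382). These calls lie close to the threshold. With a covariate for low or high animal numbers, which are partly aligned with genotype on SD, only *Igfbp3* was called. In fits that each dropped 1 mouse, *Igfbp3* remained called in 10 of 16 fits and lost the call without P358, P359, P381, P382, P383 or P384 (adjusted p 0.0552 to 0.0900). *Igfbp5* remained called in 5 of 16 fits, those without P356, P385, P390, P391 or P392, and had an adjusted p of 0.0514 to 0.116 in the other 11.

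The other 4 binding proteins had higher means in mutant SD mice without passing the test over all genes. *Igfbp2* (chr1:72824503-72852474, plus strand), a binding protein abundant in brain and fetal tissues, was 11.1, 11.8, 10.2 and 12.2 in control SD mice and 17.0, 15.5, 14.5 and 14.9 in mutant SD mice (log2 fold change 0.44, SE 0.15, adjusted p = 0.131). *Igfbp7* (chr5:77349240-77408041, minus strand), a protein of vessel walls with low affinity for IGF, was 39.4, 54.4, 48.7 and 49.4 against 91.8, 60.8, 57.9 and 64.8 (0.50, SE 0.16, adjusted p = 0.106), and P357 was the highest of these. Neither gene's values overlapped between the groups. *Igfbp4* (chr11:99041244-99054392, plus strand), which holds IGF back until a protease cuts it, was 25.2, 27.0, 31.7 and 30.3 against 29.1, 39.4, 35.6 and 41.4 (0.34, SE 0.15, adjusted p = 0.238). *Igfbp6* (chr15:102144362-102149511, plus strand), which prefers IGF2, was 1.62, 1.41, 3.51 and 2.15 against 3.18, 4.97, 8.33 and 7.51 (1.26, SE 0.48, adjusted p = 0.166). For both genes the groups overlapped through a single mutant, P357. *Polr2b* and *Gm34648* overlap *Igfbp7* on the other strand.

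Counted together, 6 of 6 binding proteins had an unadjusted p under 0.05 and a higher level in mutant SD mice, against 10.9% of all tested genes, and 4 of 6 had no overlap between the groups, against 6.09% of all tested genes higher without overlap. Their median log2 fold change was 0.58, against -0.0071 over all tested genes. With the ligands, 6 of the 10 genes had no overlap, 5 of them higher and *Igf1* lower, where 4.5% of tested genes were lower without overlap.

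The summed level of the 6 binding protein genes was 293 ± 15.2 in control SD mice (range 277 to 308) and 498 ± 10.6 in mutant SD mice (range 483 to 508). *Igfbp5* made up 59.96% ± 2.48 of this sum in controls and 55.9% ± 2.62 in mutants, while the part of *Igfbp3* was 9.21% ± 4.57 and 18.6% ± 2.23. The part of *Igfbp3* did not overlap between the groups, with a mutant range of 16.2% to 20.7% against 5.66% to 15.9% in controls. In control HFD mice the sum was 338 ± 122, which was 278 ± 20.1 in 3 mice and 520 in P392, and in mutant HFD mice it was 470 ± 12.3 (range 452 to 480). The summed level of the ligand genes was 5.69 ± 1.46 in control SD and 7.95 ± 0.682 in mutant SD mice, and the ratio of binding protein to ligand signal was 54.1 ± 14.4 and 62.9 ± 5.38, which overlapped.

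**Figure D2:**
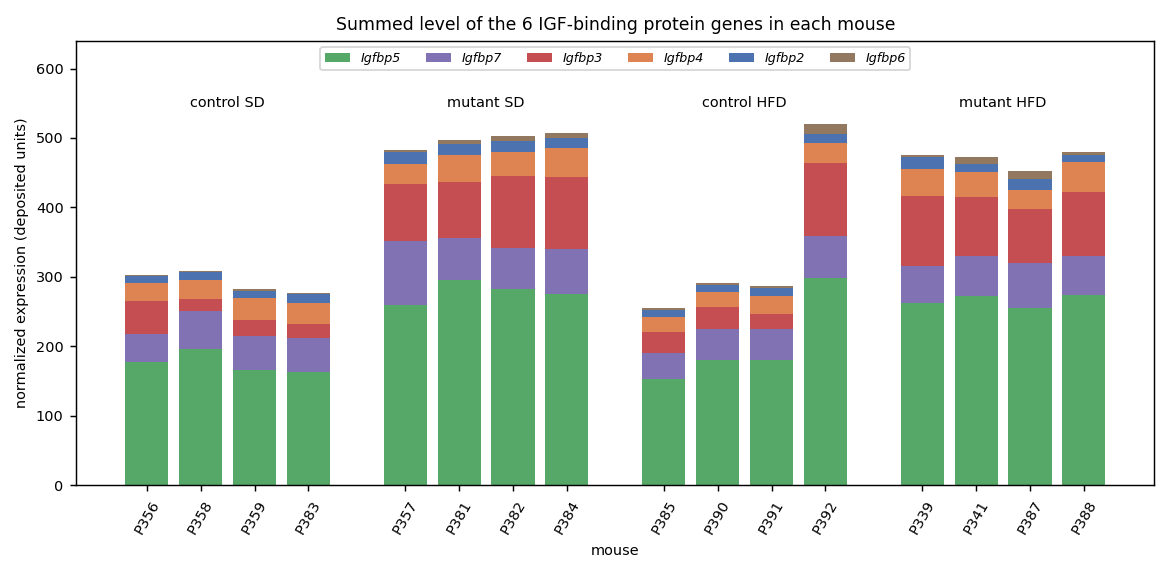
Stacked bars of the level of the 6 binding protein genes in deposited units (y axis, from 0) in each of the 16 mice (x axis, grouped by genotype and diet). The 8 mutant mice reach 452 to 508, the 7 control mice other than P392 reach 255 to 308, and P392 reaches 520.

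On HFD, 0 of the 10 genes and 0 of all 14345 tested genes passed the limma test between genotypes, 0% of the background. At an unadjusted p under 0.05 there were 3 of the 10, all higher (*Igfbp3*, *Igfbp4* and *Igfbp5*), against 10.2% of all tested genes, 1461 in number, in either direction and 6.58% higher. *Igfbp3* was 30.8, 31.3, 22.0 and 105 in control HFD mice and 101, 84.0, 77.7 and 92.4 in mutant HFD mice. In 3 of 4 controls it lay near the level of control SD mice, and in P392 it was above all mutants. The log2 fold change was 1.18 (SE 0.38, adjusted p = 0.284) with P392 and 1.66 (SE 0.26, adjusted p = 0.00175) without it, over a range of 0.00175 to 0.749 for all alternatives. *Igfbp5* was 153, 180, 181 and 298 in controls and 262, 273, 256 and 274 in mutants, with P392 again the highest mouse. Its log2 fold change was 0.44 (SE 0.15, adjusted p = 0.325) with P392 and 0.64 (SE 0.09, adjusted p = 0.000997) without it, over a range of 0.000440 to 0.749. For *Igfbp4*, with 21.9, 21.3, 25.7 and 29.7 in controls and 39.3, 36.0, 26.7 and 42.4 in mutants, the values were 0.53 (SE 0.15, adjusted p = 0.256) and 0.62 (SE 0.16, adjusted p = 0.0376), over a range of 0.0171 to 0.698. Without P392, these 3 genes were called, and 653 of all tested genes, 4.55%, were called in either direction. P392 was left out because of its high values of several IGF genes, so these calls are a description and not a separate test.

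The other binding proteins had log2 fold changes of 0.32 (*Igfbp2*, SE 0.15), 0.32 (*Igfbp7*, SE 0.16) and 0.47 (*Igfbp6*, SE 0.48) on HFD, and of 0.40, 0.45 and 1.00 in the same order without P392, where none of the 3 was called. *Igfbp2* was 9.33, 10.04, 11.3 and 12.9 in controls and 16.5, 12.8, 16.2 and 9.96 in mutants, and *Igfbp7* was 37.1, 45.6, 44.6 and 60.5 in controls and 52.7, 57.8, 64.5 and 56.9 in mutants. *Igfbp6* spread widely, with 2.76, 3.69, 2.44 and 14.2 in controls and 3.31, 9.43, 11.2 and 4.45 in mutants. All 10 genes had a log2 fold change above 0 on HFD, with a median of 0.39 against 0.018 over all tested genes, and the groups overlapped for all 10, where 2.96% of tested genes were higher and 2.34% lower without overlap.

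Over both diets together, 5 of the 10 genes were called higher in mutants and 0 lower, where 4.48% of all tested genes were called higher, 2.06% lower and 6.54% in either direction. All 5 were binding proteins. *Igfbp3* had a log2 fold change of 1.52 (SE 0.27, adjusted p = 0.00530), *Igfbp5* of 0.55 (SE 0.11, adjusted p = 0.00841), *Igfbp4* of 0.44 (SE 0.11, adjusted p = 0.0284), *Igfbp7* of 0.41 (SE 0.11, adjusted p = 0.0409) and *Igfbp2* of 0.38 (SE 0.11, adjusted p = 0.0454). Two-sided exact permutation tests within the diets gave p = 0.00204 for *Igfbp3* and *Igfbp5*, 0.00245 for *Igfbp7*, 0.00408 for *Igfbp4* and 0.00490 for *Igfbp2*. *Igfbp6* did not pass (0.87, SE 0.34, adjusted p = 0.142). The calls of *Igfbp3* and *Igfbp5* held in all 27 alternatives (adjusted p at most 0.0147 and 0.0232). In fits that each dropped 1 mouse, *Igfbp4* was called in 6 of 16 fits (those without P356, P357, P359, P383, P387 or P392), *Igfbp7* in 5 (without P357, P358, P381, P382 or P392) and *Igfbp2* in 2 (without P388 or P392), with adjusted p of at most 0.0700, 0.0843 and 0.102. Without P392, 7 of the 10 genes were called, *Igf2* and *Igfbp6* (adjusted p = 0.0116, range over all alternatives 0.00496 to 0.271) being added, and 13.5% of all tested genes.

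**Figure D3:**
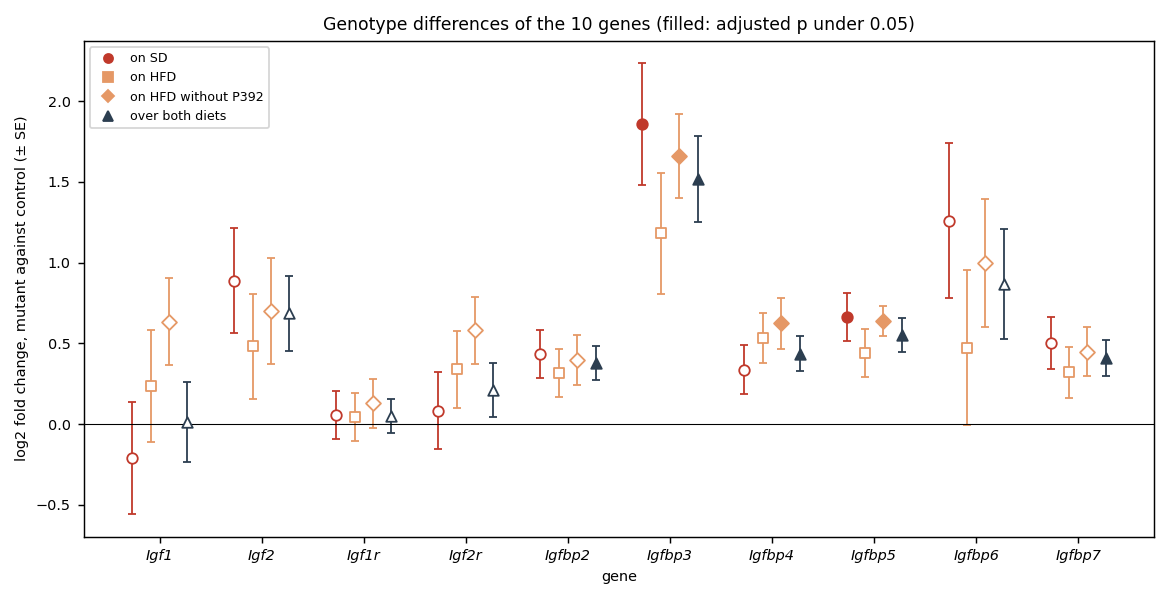
Log2 fold change of mutant against control mice (y axis) for the 10 genes (x axis) on SD, on HFD, on HFD without P392 and over both diets. Bars are the standard error, filled symbols have an adjusted p under 0.05, and *Igfbp3* has the highest value in each of the 4 sets, from 1.18 to 1.86.

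Diet alone moved none of the 10 genes past the test. Between HFD and SD, 0 of 10 were called in controls, in mutants and over both genotypes, where 0%, 0% and 0.00697% of all tested genes were called, and 0 of 10 had an unadjusted p under 0.05 in limma, against 592 (4.13%), 717 (5%) and 733 (5.11%) of all tested genes. In mutants *Igfbp3* stayed at 88.9 ± 10.3 on HFD against 92.5 ± 12.6 on SD (log2 fold change -0.055, SE 0.38) and *Igfbp5* at 266 ± 8.55 against 278 ± 15.1 (-0.064, SE 0.15). In controls *Igfbp3* was 47.3 ± 38.9 on HFD against 27.2 ± 14.2 on SD (0.62, SE 0.38) with P392 included, and without it the log2 fold change was 0.15 (SE 0.26). *Igf1* was higher in all 4 mutant HFD mice than in all 4 mutant SD mice (0.57, SE 0.35, adjusted p = 0.813), where 1.88% of tested genes were higher without overlap. The genotype effect did not differ detectably between the diets for any of the 10 genes by the interaction term, where 0% of all tested genes were called and 602 (4.2%) had an unadjusted p under 0.05 in limma. The interaction values moved with P392: that of *Igfbp6* was -0.79 (SE 0.68) with this mouse and -0.26 (SE 0.54) without it, that of *Igfbp3* -0.68 (SE 0.53) and -0.20 (SE 0.35), and that of *Igf1* 0.45 (SE 0.49) and 0.85 (SE 0.37). *Gh*, the hormone gene upstream of circulating IGF1, was 67101 ± 18265 in control SD, 70547 ± 18064 in mutant SD, 48167 ± 9808 in control HFD and 42989 ± 11901 in mutant HFD mice (HFD against SD over both genotypes -0.59, SE 0.23, adjusted p = 0.8995). For this difference of *Gh* the unadjusted limma p was 0.0210. The two-sided exact permutation p within the genotypes, also unadjusted, was 0.00653.

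Markers of vessel cells, of macrophages and of oestrogen response were higher in mutants as well. In bulk tissue, fewer or more cells of a type and less or more RNA per cell cannot be told apart. Of 11 endothelial markers, 11 had a log2 fold change above 0 in mutants over both diets, 6 were called higher (*Cdh5*, *Egfl7*, *Eng*, *Pecam1*, *Plvap* and *Tek*), where 4.48% of all tested genes were, and their median was 0.55, against 0.0017 over all tested genes. Their summed level was 167 to 204 in control SD, 248.9 to 334 in mutant SD, 159 to 325 in control HFD and 251 to 284 in mutant HFD mice, and the 325 is P392, against at most 179 in the other control HFD mice. Of 8 pericyte and mural markers, 7 were tested, 7 were above 0 and 5 were called higher (*Abcc9*, *Kcnj8*, *Myh11*, *Notch3* and *Rgs5*), with a median of 0.73. Their sum was 38.9 to 58.9 in control SD, 91.4 to 114 in mutant SD, 40.0 to 163 in control HFD and 98.0 to 152 in mutant HFD mice, with P392 at 163. Of 10 macrophage markers, 9 were tested, 9 were above 0 and 3 were called higher (*C1qa*, *Cx3cr1* and *Mrc1*), with sums of 51.2 to 69.8, 88.2 to 196, 45.8 to 141 and 81.4 to 183 in the same order of groups. None of these markers was at 0 in any mouse. Of 10 fibroblast markers, 8 were tested, 5 were above 0 and 0 were called by limma. At an unadjusted p under 0.05 in limma, 2 were higher and 1 lower, and the share of all tested genes at that cut is not given here. The fibroblast sums were 219 to 272, 264 to 415, 133 to 715 and 270 to 588, the 715 being P392. The fibroblast marker *Dpt* was at 0 in 2 mice. Of 8 folliculostellate and stem cell markers, 6 were tested, 5 were above 0 and 1 was called higher (*Aldh1a2*), with a median of 0.16. Of 7 hormone genes 0 were called, of 5 melanotroph markers 0, and of 7 posterior lobe markers 1 was called higher (*Col25a1*). In P357 and P392 *Col25a1* was 13.9 and 15.3, while the posterior lobe markers *Rax* and *Avp* were at 0 in both. It therefore did not follow these markers, and its call is not read as posterior lobe signal. All 4 genes listed as oestrogen-induced (*Prl*, *Gal*, *Pgr* and *Greb1*) were above 0 and 2 were called higher (*Gal* and *Greb1*), with a median of 0.81. Their mean log2 level was 8.28 to 9.87, 9.96 to 10.26, 8.55 to 10.31 and 9.93 to 10.32 in the same order of groups. The 9.87 is P356 and the 10.31 is P392. The part of these cells, or of oestrogen-induced genes, in the differences of the IGF genes was not tested.

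**Figure D4:**
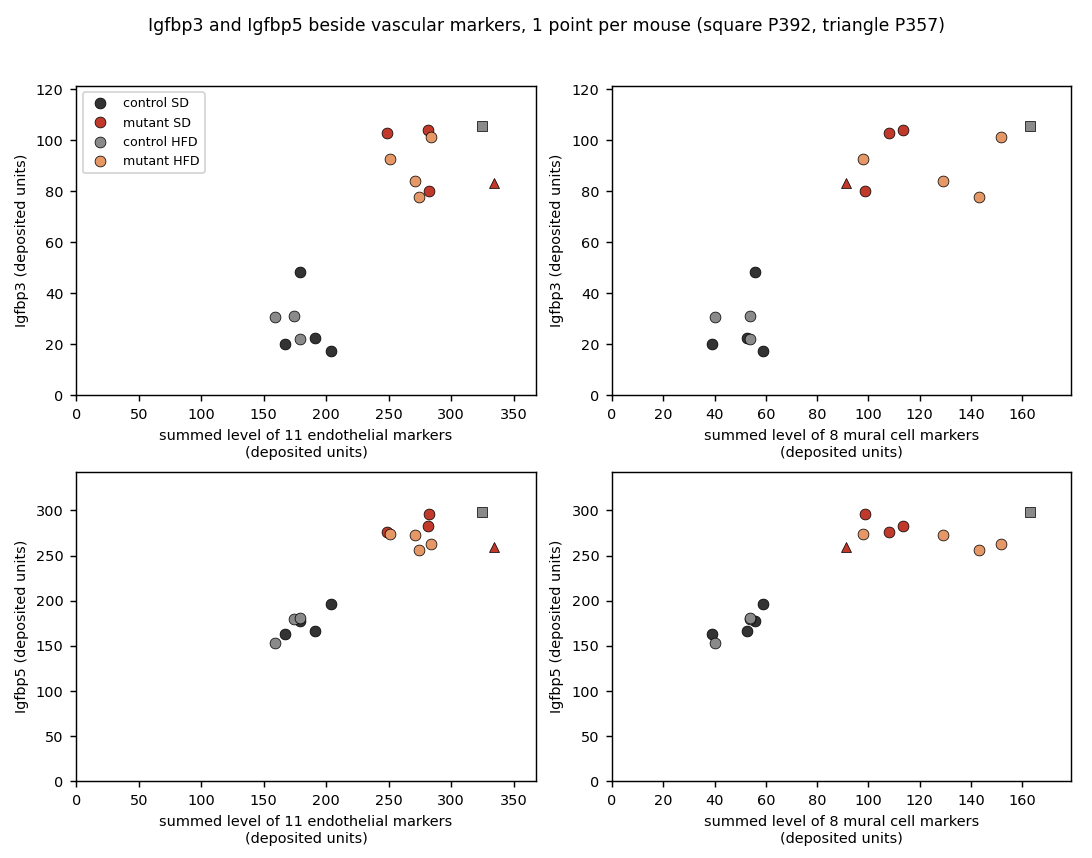
Level of *Igfbp3* (top) and *Igfbp5* (bottom) against the summed level of 11 endothelial markers (left) and 8 mural cell markers (right), all in deposited units from 0, with 1 point per mouse. The 7 control mice other than P392 lie at or below 204 for the endothelial sum and 58.9 for the mural sum, and the mutants and P392 lie above.

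The 5 binding protein genes called higher over both diets are shown by the 120 bases before their RefSeq start sites. The sequences are from RefSeq on GRCm38.p6, written 5′ to 3′ on the strand of the gene, and run from chr1:72824360-72824479 (+) for *Igfbp2*, chr11:7213924-7214043 (-) for *Igfbp3*, chr11:99041124-99041243 (+) for *Igfbp4*, chr1:72874866-72874985 (-) for *Igfbp5* and chr5:77408046-77408165 (-) for *Igfbp7*. Capitals mark the letters GGGCGG, known as the GC box, wherever found on either strand. The other capitals mark a core promoter element named for its letters, searched as TATANA on either strand, overlapping matches included.
Igfbp2: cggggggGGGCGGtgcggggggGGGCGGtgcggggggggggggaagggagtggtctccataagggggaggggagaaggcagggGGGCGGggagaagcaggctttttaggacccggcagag
Igfbp3: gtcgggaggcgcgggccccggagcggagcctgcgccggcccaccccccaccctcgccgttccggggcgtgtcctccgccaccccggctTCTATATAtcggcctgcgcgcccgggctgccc
Igfbp4: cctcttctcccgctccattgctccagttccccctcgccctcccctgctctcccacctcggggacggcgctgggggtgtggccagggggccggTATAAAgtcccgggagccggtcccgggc
Igfbp5: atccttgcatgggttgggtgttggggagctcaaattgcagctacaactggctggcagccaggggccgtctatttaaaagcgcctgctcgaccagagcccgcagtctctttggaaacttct
Igfbp7: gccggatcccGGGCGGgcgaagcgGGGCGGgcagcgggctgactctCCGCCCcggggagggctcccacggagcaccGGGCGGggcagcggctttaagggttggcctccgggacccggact
The stretches differ in the motifs they hold. *Igfbp2* has 3 GC boxes and *Igfbp7* has 4, and neither has TATANA. *Igfbp3* has overlapping TATANA matches that begin 32 and 30 bases before the start, *Igfbp4* has one that begins 28 bases before it, and neither has GGGCGG. The stretch of *Igfbp5* holds neither motif. In the whole windows of 250 bases before to 50 after the start, GGGCGG was found in 35.7% and TATANA in 24.7% of 32851 promoters. The oestrogen response element palindrome GGTCANNNTGACC was in 0 of the 14 windows of the 10 genes and in 0.0700% of all windows, and its half-site GGTCA, on either strand and also counted within the palindrome, was in 8 of the 14 windows, from 7 of the 10 genes, and in 40.5% of all windows. Among the 5 genes shown, the half-site was in the window of *Igfbp7* and, for *Igfbp2*, only in that of another start than the one shown. *Igfbp2* and *Igfbp5* are neighbours on chromosome 1, on opposite strands and 5457 bases apart in GENCODE on GRCm38.

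Genes that carry or shape the IGF signal, with those of the growth hormone axis, were counted from lists of 76 genes, of which 72 were listed and 65 tested. On SD, 3 of the 65 were called higher and 1 lower in mutants, against 1.84% of all tested genes in either direction. Over both diets 4 were called higher and 1 lower, against 6.54%. Most of the pathway was therefore not past the test, with a median log2 fold change of 0.0097 on SD and 0.029 over both diets. Of the 13 receptor and adaptor genes tested, 3 were called on SD. Of 19 genes of the kinase branch through Akt and 9 of the branch through mitogen-activated kinases, 0 were called in any comparison of the 16 mice by limma. Over both diets, 1 of the 19 was higher and 1 lower at an unadjusted p under 0.05, and 1 of the 9 was lower. The share of all tested genes at that cut is not given here. Without P357 and P392, 19 of the 65 genes (29.2%) and 2668 of all tested genes (18.6%) were called over both diets. *Igfbp1*, *Igfals*, *Igfbpl1* and *H19* were not analysed here.

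Of these 13 receptor and adaptor genes, *Grb10* and *Grb14* were called higher and *Irs4* lower in mutants on SD, 6 of the 13 had a log2 fold change above 0, and their median was -0.011. *Grb10*, an imprinted growth inhibitor that binds the activated insulin and IGF receptors, was 16.3, 17.0, 17.2 and 11.9 in control SD mice and 30.5, 29.0, 39.3 and 41.7 in mutant SD mice. It was 11.3, 15.1, 15.5 and 31.7 in control HFD mice and 39.3, 39.8, 36.4 and 30.9 in mutant HFD mice, and the 31.7 is P392. The log2 fold change was 1.14 (SE 0.24, adjusted p = 0.0288) on SD, 1.07 (SE 0.24, adjusted p = 0.205) on HFD and 1.11 (SE 0.17, adjusted p = 0.00270) over both diets. *Grb14*, a related adaptor, was 4.45, 5.24, 5.32 and 7.55 in control SD and 14.2, 10.7, 10.4 and 7.69 in mutant SD mice (0.87, SE 0.18, adjusted p = 0.0297). On HFD it was 8.22, 7.79, 6.77 and 7.63 in controls and 6.85, 6.48, 8.45 and 8.36 in mutants (-0.017, SE 0.18). Its difference between the diets did not pass the test (interaction -0.88, SE 0.25, adjusted p = 0.924). *Irs4*, a docking protein that passes the receptor's signal on, was 10.8, 13.5, 14.9 and 14.5 in control SD and 5.46, 9.12, 6.43 and 7.40 in mutant SD mice, lower without overlap (-0.89, SE 0.19, adjusted p = 0.0317). Under HFD it was 12.6, 15.0, 13.0 and 7.82 in controls and 7.72, 7.73, 7.90 and 9.56 in mutants, and the 7.82 is P392. Without P392, 4 of the 65 pathway genes were called on HFD, *Grb10* (1.37, SE 0.17), *Htra3* (1.64, SE 0.39), *Irs4* (-0.69, SE 0.16) and *Stc1*, against 4.55% of all tested genes. For *Irs4* the log2 fold change over both diets was -0.69 (SE 0.13, adjusted p = 0.00847). Leaving out each mouse in turn, the calls of *Grb10* and *Irs4* over both diets held in all 16 fits. On SD, *Grb10* lost its call without P358, P359, P381, P382, P383 or P384, *Grb14* without P357, P358, P359, P381 or P382, and *Irs4* without P357, P358, P359, P382, P383 or P384.

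Of 9 tested genes that act on the binding proteins, 2 were called higher over both diets (*Pappa2* and *Plat*). Of 10 tested genes of the growth hormone axis, 1 was (*Ghr*). Of all tested genes, 4.48% were called higher and 6.54% in either direction. For the 65 pathway and axis genes together the share in either direction was 7.69%, near that of all tested genes. *Pappa2* encodes a protease that cuts IGFBP3 and IGFBP5. It was 4.63, 8.15, 5.77 and 5.93 in control SD and 4.50, 14.1, 17.2 and 12.1 in mutant SD mice, where the 4.50 is P357. Its HFD values were 3.79, 6.33, 6.86 and 6.17 in controls and 16.6, 13.1, 6.64 and 17.0 in mutants, and the log2 fold change over both diets was 0.94 (SE 0.25, adjusted p = 0.0376). *Plat*, the gene of tissue plasminogen activator, was 26.7, 25.9, 26.5 and 24.7 in control SD, 42.4, 33.9, 33.2 and 32.2 in mutant SD, 20.2, 19.4, 19.3 and 19.1 in control HFD and 24.2, 23.1, 23.8 and 25.1 in mutant HFD mice. It was higher in mutants without overlap on either diet (0.43 on SD, SE 0.09, adjusted p = 0.0297; 0.36 over both, SE 0.06, adjusted p = 0.00530), and it was the single gene of all 14345 called between the diets over both genotypes (-0.47, SE 0.06, adjusted p = 0.0255). In fits that each dropped 1 mouse, the genotype call of *Plat* over both diets held in all 16 fits, that on SD was lost without P358, P359, P381, P382 or P383, and the diet call held in 5, those without P356, P357, P383, P384 or P385. *Ghr*, the growth hormone receptor, was low, at 1.75, 2.86, 2.16 and 2.32 in control SD, 2.86, 3.77, 4.43 and 3.70 in mutant SD, 2.82, 2.92, 1.92 and 2.19 in control HFD and 4.58, 3.86, 4.91 and 2.35 in mutant HFD mice (0.57 over both, SE 0.15, adjusted p = 0.0373). The call of *Pappa2* held in 5 of the 16 fits without a mouse (P356, P357, P358, P387 or P392) and that of *Ghr* in 6 (P356, P357, P358, P385, P388 or P392). In the comparisons with no call among the 16 mice, the 3 largest log2 values of the lists were as follows. Between genotypes on HFD they were those of *Esm1* (1.11), *Pappa2* (1.08) and *Grb10*. *Esm1* is also 1 of the 5 melanotroph markers counted above, and its lowest levels were 3.58 in P357 and 11.5 in P392, the mice named above for their melanotroph sums. Between diets in controls they were those of *Htra3*, a secreted protease (0.64, and -0.030 without P392), *Stat5a*, which carries the signal of the growth hormone receptor (0.60), and *Sstr5*, a somatostatin receptor (-0.50). Between diets in mutants they were those of *Esm1* (0.95, and 0.11 without P357), *Gh* (-0.72) and *Pdpk1*, a kinase that activates Akt (0.71), and for the interaction those of *Esm1* (1.14, and 0.29 without P357), *Pdpk1* (0.99, and 0.70 without P357) and *Grb14*.

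**Figure D5:**
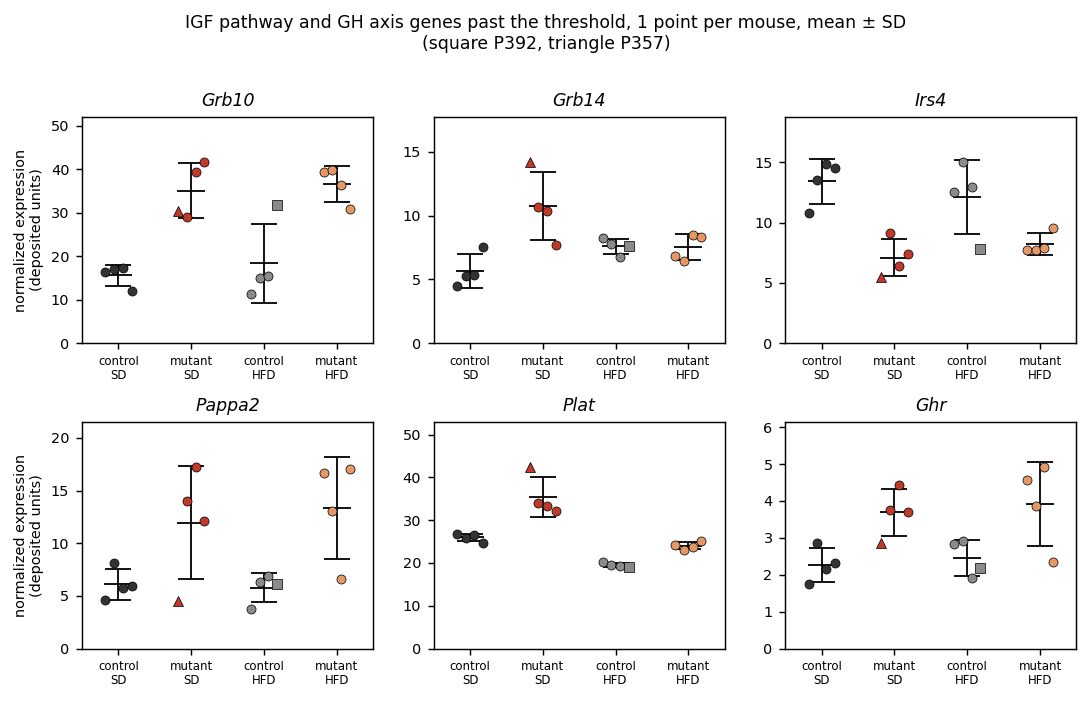
Normalized expression in deposited units (y axes, each from 0) of the 6 pathway and growth hormone axis genes called on SD or over both diets, in the 4 groups of 4 mice, with 1 point per mouse and bars for the mean ± SD. P392 (square) lies with the mutants for *Grb10* (31.7) and *Irs4* (7.82) and with the controls for *Plat* (19.1), *Pappa2* (6.17) and *Ghr* (2.19).

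To describe which genes varied with each of the 10 from mouse to mouse, Pearson's r was taken over the 16 mice after the group means were removed, and again without P357 and P392 (14 mice). The points share libraries, so that r also carries what differs between whole libraries. Nearest to *Igfbp3* were *Ggt5* (r = 0.953, 0.876 without the 2 mice), *Hspb8* (0.924, 0.811) and *Spon1* (0.920, 0.939). Nearest to *Igfbp5* were *Tie1* (0.950, 0.721), *Notch3* (0.949, 0.636) and *Cacng2* (0.949, 0.623), of which *Tie1* and *Notch3* are the endothelial and mural markers counted above. For *Igfbp2* they were *Pxk* (0.830, 0.819), *Clec1a* (0.828, 0.831) and *Tmem175* (0.822, 0.845), for *Igfbp4* *Ank* (0.887, 0.843), *Sgsm1* (0.868, 0.8003) and *Sema6b* (0.858, 0.773), for *Igfbp6* *Htra1* (0.8998, 0.747), *Mdfic* (0.884, 0.788) and *P3h4* (0.879, 0.732), and for *Igfbp7* *Hspb1* (0.906, 0.832), *Dnm1* (0.902, 0.872) and *Sipa1* (0.898, 0.744). *Igfbp5* and *Igf2r* lost the most in r when the 2 mice were left out. For *Igf2r* these genes were *Scn2b* (0.969, 0.772), *Vash1* (0.956, 0.685) and *Chid1* (0.949, 0.687). The remaining ones were *Trpv4* (0.918, 0.805), *Adcyap1* (0.917, 0.795) and *Nefl* (0.907, 0.761) for *Igf1*, *Ccn6* (0.820, 0.845), *Rnf20* (0.813, 0.859) and *Ankrd40* (0.781, 0.772) for *Igf2*, and *Gm1604a* (0.954, 0.931), *Prkce* (0.953, 0.925) and *Pfkfb3* (0.950, 0.961) for *Igf1r*. Within groups, *Igfbp3* and *Igfbp5* had an r of 0.687 with each other over 16 mice and -0.19 over 14.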

How the data were processed

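Pituitary RNA of 16 female mice was sequenced by the authors (NEBNext Ultra II libraries, Illumina NovaSeq), 1 library per mouse. Per the labels and the study's methods, reads were quantified with kallisto on mm10 and analysed in sleuth, and versions are not given in the sources used here. What the authors deposited is a normalized signal for each gene, not counts. The lowest values of a gene fell with its transcript length (Spearman's rho -0.522 across 420 genes), as values per length do, but the exact unit is not stated. Read depth is unknown, so no counting error is given.

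Groups were taken from the labels. The 14345 genes averaging 1 or more were fitted in limma (version 3.58.1, R 4.3.3) as log2(value + 0.5), with a mean for each group, a variance trend and Benjamini-Hochberg adjustment over all tested genes at 0.05. Fold changes are therefore on the log2(value + 0.5) scale, which understates changes of low genes. All adjusted p-values are from this fit unless a mouse is said to be left out. Single genes were also tested by two-sided exact permutation of the 70 assignments of 4 against 4 mice, or the 4900 within both diets or both genotypes. Tables were made with pandas 2.3.3 and numpy 2.4.6 in Python 3.11.15, figures with matplotlib 3.10.9, and the fit was tested on simulated data. The mice are separate animals.

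Named genes were the 10 IGF genes in every comparison, list genes with an adjusted p under 0.05 in any comparison and otherwise the 3 largest log2 changes, the 3 genes with the highest r for each IGF gene, *Esr1* and *Gh*. Symbols (17351 genes) were taken from the gene table given and positions from GENCODE on GRCm38. The genes, lists and markers were chosen with earlier results of these data known. The alternatives were other pseudocounts, filters, scalings, variance models and thresholds, fits of only the mice in a comparison, a covariate for low or high animal numbers, and mice left out.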

Additional observations from a re-analysis of the deposited data

Results flagged for a closer look

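In 12 of the 80 sets of 4 mice searched, a single mouse lay further from the others than Dixon's 95% critical value for 4 samples, where chance flags about 1 in 20 sets, here 4. P392 was that mouse in 7 of the 12, all in the control HFD group. Its level was 7.01 for *Igf1* (1.57 to 2.38 in the other 3 mice), 18.4 for *Igf2r* (8.75 to 9.99), 105 for *Igfbp3* (22.0 to 31.3) and 14.2 for *Igfbp6* (2.44 to 3.69). In the same mouse the summed markers were 325 for endothelial cells (159 to 179), 163 for mural cells (40.0 to 54.0) and 715 for fibroblasts (133 to 193).

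Outside that mouse, the IGF genes had 3 such values. In control SD mice, *Igf1* was 2.97 in P359 (2.30 to 2.39 in the others) and *Igfbp3* was 48.3 in P356 (17.5 to 22.6). In mutant HFD mice, *Igf2r* was 15.7 in P339 (13.4 to 13.7). The remaining 2 values belong to P357 among the mutant SD mice, with *Esr1* at 10.02 (20.5 to 22.2) and the melanotroph markers at 29.9 (171 to 197).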

How the results depend on the processing

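No paired analysis was possible because the labels give animal numbers only, and the groups share no replicate number. Of the 10 genes, the number called on SD was 2, and it was 1 (*Igfbp3*) under quantile normalization or with a covariate for low or high animal numbers, 0 at a threshold of 0.01, and 0 to 2 when 1 mouse was left out. On HFD it was 0 to 3 with 1 mouse left out and 5 without P357 and P392. Over both diets it was 5, and 4 under median scaling or with the covariate (*Igfbp2* lost, limma adjusted p = 0.0503 and 0.0518) and under quantile normalization (*Igfbp7* lost, 0.0518), 2 to 7 with 1 mouse left out, 2 at 0.01 (*Igfbp3* and *Igfbp5*) and 8 without both mice.

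For the pathway genes, the SD count of 4 was 0 at 0.01, 2 in a fit of only the mice compared, 7 without both mice and 0 to 5 with 1 mouse left out. On HFD it was 12 without both and 0 to 4 with 1 left out. Over both diets the 5 became 3 at 0.01, 19 without both and 3 to 10 with 1 left out. The diet call of *Plat* was lost (count 0) under median scaling, without a variance trend and at 0.01, and the count was 0 to 1 with 1 mouse left out.

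Over all tested genes, the SD count of 264 was 151 with a filter at a mean of 5, 20 at 0.01, 961 without both mice and 33 (without P382) to 826 (without P356) with 1 left out. On HFD 1 gene was called with a filter of 0.1, with none or without a trend, 1064 without both, and 0 to 653 (without P392). Over both diets the 938 became 610 with the filter at 5, 186 at 0.01, 2668 without both and 441 (without P390) to 1931 (without P392). For diet, the counts were 1 in controls without both (0 to 6 with 1 left out), 2 in mutants with only the mice compared (0 to 1), 0 to 1 for the interaction, and over both genotypes 0 under median scaling, without a trend and at 0.01, 2 with the number covariate and 0 to 6 with 1 left out.

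Of 70 log2 differences of the 10 genes, 21 changed sign in at least 1 of 26 to 28 alternatives. All of the 56 values concerned were 0.28 or smaller in size and none was called. With the animal number covariate these were, for *Igf1r*, -0.026 (diet in controls), -0.041 (genotype on SD) and 0.18 (interaction), for *Igf2r* -0.095 (diet in controls) and -0.025 (genotype on SD), and for diet 0.00321 for *Igfbp2* and 0.032 for *Igfbp7* in controls and 0.00502 for *Igfbp4* in mutants. Without P357 and P392 they were, for diet in controls, -0.28 for *Igf1*, -0.18 for *Igf2r* and -0.040 for *Igfbp5*, for diet in mutants -0.00921 for *Igf1r* and -0.090 for *Igfbp6*, for diet over both genotypes -0.045 for *Igf2r* and -0.069 for *Igfbp5*, and for the interaction 0.00564 for *Igfbp2* and 0.092 for *Igfbp7*. The genotype difference of *Igf1* over both diets was -0.000258 under median scaling and -0.060 under quantile normalization. With 1 mouse left out, the ranges for diet in controls were -0.28 to 0.34 (*Igf1*), -0.18 to 0.17 (*Igf2r*), -0.14 to 0.0093 (*Igfbp2*), -0.040 to 0.28 (*Igfbp5*) and -0.17 to 0.062 (*Igfbp7*). For diet in mutants they were -0.0092 to 0.16 (*Igf1r*), -0.098 to 0.26 (*Igf2*), -0.12 to 0.0066 (*Igfbp3*), -0.12 to 0.12 (*Igfbp4*) and -0.10 to 0.44 (*Igfbp6*), and for diet over both genotypes -0.052 to 0.11 (*Igfbp5*). For genotype they were -0.023 to 0.17 (*Igf1r*) and -0.064 to 0.32 (*Igf2r*) on SD, -0.066 to 0.63 (*Igf1*) and -0.039 to 0.13 (*Igf1r*) on HFD and -0.14 to 0.21 (*Igf1*) over both diets, and for the interaction -0.13 to 0.071 (*Igf1r*) and -0.21 to 0.025 (*Igfbp2*). The causes of these changes were not tested. The number of mice and the unknown read depth limit the precision.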
